A study of Mus musculus with 3 samples.

Results

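The genes described here are 10 transcription factors of the endocardial cushion and of the change from endothelium to mesenchyme: Twist1, Twist2, Snai1, Snai2, Zeb1, Zeb2, Msx1, Msx2, Prrx1 and Prrx2. They were taken by name from the 36167 features of the count tables, and all 10 were found. Their counts were read per pool and cell class in nuclei with at least 1000 UMIs (unique molecular identifiers, each standing for 1 captured RNA molecule) and at most 5% of UMIs from mitochondrial genes. The tissue was the aortic valve structure of mouse pups at postnatal day 1, in 3 pools of 22 to 24 aortic roots that form 1 group with no second condition. All pups carried the strain label B6.Cg-Scx<tm1.1(EGFP)Skom, which names an EGFP allele of the tendon-associated gene Scx, and their zygosity is not stated. RNA was counted in nuclei from frozen tissue with the gene expression assay of 10x Genomics Multiome, and the comparisons are between classes of nuclei inside the pools. Each pool mixes roots of many animals, so p-values rest on how class differences vary between pools and not between single animals.

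The valve leaflets arise from cushions, swellings of the heart wall into which endocardial cells migrate after losing their junctions and becoming mesenchyme. Snai1, Snai2, Zeb1 and Zeb2 encode zinc finger repressors that bind E-box sequences and turn down junction genes such as the one for E-cadherin. Twist1 and Twist2 encode basic helix-loop-helix factors that act as dimers with E proteins, Msx1 and Msx2 encode homeodomain factors that act downstream of BMP signals in cushions, and Prrx1 and Prrx2 encode paired-type homeodomain factors of connective tissue.

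The promoters of 3 members are shown because they hold the letters of the sites that these families bind, and because the 3 genes are among those higher in valve interstitial-like than in endothelial-like nuclei below. RefSeq promoter windows on build GRCm38.p6 were found for 8 of the 10 members, and each line gives the 250 bases before the transcription start, 5′ to 3′ on the gene's strand. Capitals mark CACCTG, a core sequence of SNAIL and ZEB sites, in Msx1 and Snai1, and TAATTA, a core sequence of homeodomain sites, in Prrx1. The windows are chr5:37824586-37824835 on the minus strand for Msx1, chr2:167537945-167538194 on the plus strand for Snai1 and chr1:163313651-163313900 on the minus strand for Prrx1.
Msx1: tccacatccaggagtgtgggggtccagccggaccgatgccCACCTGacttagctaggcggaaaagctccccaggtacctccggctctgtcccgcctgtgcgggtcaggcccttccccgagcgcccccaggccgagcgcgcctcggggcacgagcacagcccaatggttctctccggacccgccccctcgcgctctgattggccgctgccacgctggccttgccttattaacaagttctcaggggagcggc
Snai1: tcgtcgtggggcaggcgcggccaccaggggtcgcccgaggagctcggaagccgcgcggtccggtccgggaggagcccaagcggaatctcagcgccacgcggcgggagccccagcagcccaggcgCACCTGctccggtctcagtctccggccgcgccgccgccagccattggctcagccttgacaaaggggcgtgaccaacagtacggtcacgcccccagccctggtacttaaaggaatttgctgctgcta
Prrx1: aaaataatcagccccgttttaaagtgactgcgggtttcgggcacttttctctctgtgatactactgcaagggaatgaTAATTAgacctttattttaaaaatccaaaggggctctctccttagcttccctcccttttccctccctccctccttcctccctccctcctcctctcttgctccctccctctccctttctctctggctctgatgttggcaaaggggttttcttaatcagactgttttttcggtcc

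Both strands were searched, and a site on the other strand reads CAGGTG for the first motif and TAATTA again for the second. The Msx1 site lay 205 to 210 bases before the start, the Snai1 site 121 to 126 bases and the Prrx1 site 168 to 173 bases. Of 32851 promoter windows of the same length, 17.2% held CACCTG or CAGGTG and 4.84% held TAATTA. Msx2 was the only other of the 8 members with a match, a TAATTA at 182 to 187 bases. The E-boxes CATATG (3.46% of windows) and CAGATG or CATCTG (14.4%) were found in none of the 8. A match to these letters is a description of the window and not a measured binding site.

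The 3 pools held 10580, 5949 and 4611 deposited nuclei with 96513814 UMIs in all, of which 7071, 3253 and 3749 nuclei met the rule and 13182 were analysed after doublets were taken out. Of the barcodes, 99 were shared by pools 1 and 2, 59 by pools 1 and 3 and 44 by pools 2 and 3. Nuclei were clustered without the 10 members, and 12 classes were named from marker genes, with the word "like" because no label assigns a nucleus to a cell type. Valve interstitial-like nuclei, the connective cells of the leaflet, numbered 654, 372 and 446 in pools 1, 2 and 3. Their 12 markers were all detected, at a summed 8224 to 9550 CPM (counts per 1000000 UMIs of the class and pool), against 1130 to 1269 CPM in fibroblast-like and 194 to 325 CPM in endothelial-like nuclei. The 11 fibroblast markers were all detected in valve interstitial-like nuclei too, at a summed 2431 to 3962 CPM, against 5802 to 7186 CPM in fibroblast-like nuclei. The 12 endothelial markers summed to 655 to 664 CPM in valve interstitial-like nuclei and to 7566 to 8037 CPM in endothelial-like nuclei. The part of shared or carried-over RNA in the results below was not tested. The classes were built from the same nuclei with other genes, so genes that move with those are compared between classes that they helped to draw.

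The analysed nuclei held 60726 UMIs of Zeb1, 38573 of Zeb2, 7735 of Prrx1, 2073 of Twist2, 858 of Msx1, 710 of Twist1, 622 of Snai2, 387 of Prrx2, 261 of Snai1 and 54 of Msx2. These totals set the precision of each gene, and they are not a ranking of the genes, since nuclear RNA counts grow with gene length and intron content. All levels below are CPM of the UMIs summed over a class in a pool, given as the mean ± SD of the 3 pools.

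**Figure D1:**
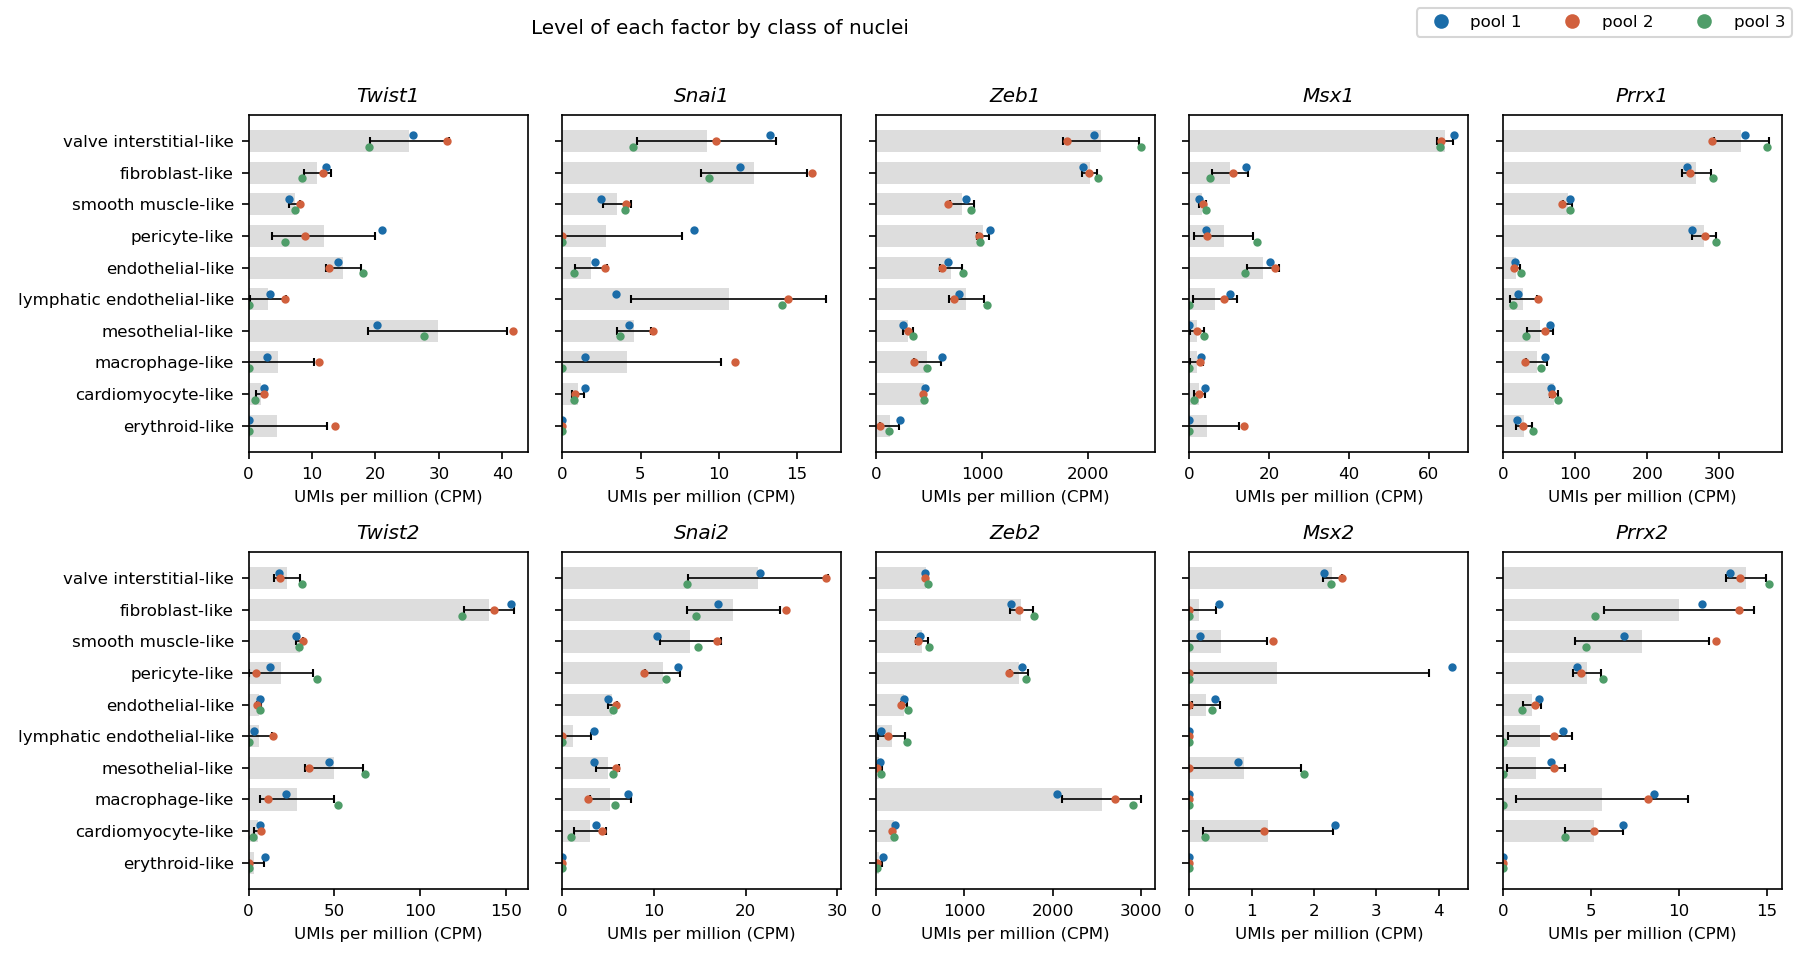
Level of each factor in 10 classes of nuclei. Bars give the mean of 3 pools in CPM, error bars the SD, and points the single pools, with a separate linear axis for each gene. Msx1 stands apart in valve interstitial-like nuclei (62.8 to 66.5 CPM), Twist2 in fibroblast-like nuclei (124 to 153 CPM) and Zeb2 in macrophage-like nuclei (2053 to 2916 CPM).

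Msx1, which encodes a homeodomain factor of the cushions, was highest in valve interstitial-like nuclei, apart from all other classes. Its level there was 66.5, 63.1 and 62.8 CPM in pools 1, 2 and 3. It was 20.1, 21.6 and 14.0 CPM in the endothelial-like class, 14.2, 10.9 and 5.22 CPM in the fibroblast-like class, and 2.29, 3.37 and 4.03 CPM in the smooth muscle-like class. The 3 valve interstitial-like values were close together and lay above every other value of the 10 classes. The ratio of the valve interstitial-like mean to that of the next class, endothelial-like, was 3.46. Below the top, the pools of neighbouring classes overlapped, so the order of neighbours is not resolved, although each endothelial-like pool lay above all smooth muscle-, cardiomyocyte-, macrophage- and mesothelial-like pools.

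Msx2, the paralogue, was near the limit of detection. Valve interstitial-like nuclei held 6, 4 and 3 Msx2 UMIs in pools 1, 2 and 3, which is 2.29 CPM ± 0.15. Cardiomyocyte-like nuclei held 16, 6 and 1 UMIs, at 1.26 CPM ± 1.04, and their values overlapped those of the valve interstitial-like class. Msx2 was under the filter on low counts and was the only member not tested.

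Twist1 and Twist2, the helix-loop-helix pair, had their highest means in different classes. Twist1 was at 25.9, 31.3 and 18.9 CPM in valve interstitial-like nuclei and at 20.2, 41.7 and 27.6 CPM in mesothelial-like nuclei, and these classes overlapped. Endothelial-like nuclei were next in order, at 14.1, 12.7 and 18.0 CPM, just under the lowest valve interstitial-like pool. Cardiomyocyte-like nuclei had the lowest mean of the 10 classes tested, 1.95 CPM ± 0.82.

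Twist2 was highest in fibroblast-like nuclei, at 153, 143 and 124 CPM in pools 1, 2 and 3, and no value of another named class reached that range. Mesothelial-like nuclei followed at 46.6, 34.9 and 68.0 CPM, and smooth muscle-like nuclei at 27.8, 31.7 and 29.5 CPM. In valve interstitial-like nuclei Twist2 was at 17.6, 18.4 and 31.0 CPM, with pool 3 the highest, whereas pool 3 was the lowest for Twist1. Endothelial-like nuclei had 6.09 CPM ± 1.16.

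Snai1 and Snai2 were sparse. Snai1 reached 12.2 CPM ± 3.38 in fibroblast-like and 9.21 CPM ± 4.41 in valve interstitial-like nuclei, and these classes overlapped. Lymphatic endothelial-like nuclei held 1, 5 and 2 Snai1 UMIs (10.6 CPM ± 6.23), too few to place that class. The valve interstitial-like values of 13.3, 9.81 and 4.54 CPM came from 37, 16 and 6 UMIs. Endothelial-like nuclei had 2.07, 2.72 and 0.736 CPM, all below the lowest valve interstitial-like pool.

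Snai2 was at 21.6, 28.8 and 13.6 CPM in valve interstitial-like nuclei, at 18.7 CPM ± 5.09 in fibroblast-like and at 14.0 CPM ± 3.34 in smooth muscle-like nuclei. These 3 classes overlapped with each other. Pericyte-like nuclei held 3, 2 and 2 Snai2 UMIs, too few to place that class. The 3 classes were apart from endothelial-like nuclei, whose pools were at 4.96, 5.90 and 5.52 CPM.

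Zeb1 and Zeb2 were found in every class, with different high points. Zeb1 was at 2053, 1794 and 2498 CPM in valve interstitial-like nuclei and at 1945, 2003 and 2085 CPM in fibroblast-like nuclei, which overlapped. The next class, pericyte-like, was at 1009 CPM ± 57.2, and endothelial-like nuclei were at 679, 622 and 821 CPM. Zeb2 was highest in macrophage-like nuclei, at 2053, 2704 and 2916 CPM. Fibroblast-like nuclei had 1530, 1615 and 1785 CPM of Zeb2 and pericyte-like nuclei 1622 CPM ± 99.0, while valve interstitial-like nuclei had 560, 560 and 591 CPM. In mesothelial-like nuclei, where Zeb1 was at 302 CPM ± 48.5, Zeb2 was at 38.8 CPM ± 26.2.

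Prrx1 was highest in 3 connective or perivascular classes. It was at 336, 289 and 365 CPM in valve interstitial-like nuclei, at 279 CPM ± 16.9 in pericyte-like and at 268 CPM ± 20.02 in fibroblast-like nuclei, and these 3 overlapped. The next class, smooth muscle-like, was lower in every pool, at 93.5, 82.2 and 93.3 CPM. Endothelial-like nuclei had the lowest mean of the 10 classes, with 16.4, 14.98 and 24.3 CPM. Prrx2 had few UMIs, with 12.9, 13.5 and 15.1 CPM in the valve interstitial-like, 10.00 CPM ± 4.27 in the fibroblast-like and 1.66 CPM ± 0.50 in the endothelial-like class. Pericyte-like nuclei held 1 Prrx2 UMI in each pool, too few to place that class.

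The first comparison set valve interstitial-like against endothelial-like nuclei. The endothelial-like class joined 7 clusters, and which of them stem from the endocardium that forms cushion mesenchyme was not tested. All 9 tested members were higher in valve interstitial-like nuclei, in 3 of 3 pools each, by edgeR's quasi-likelihood test with an adjusted p under 0.05. Of all 13742 genes tested, 18.5% were called higher in this comparison, 21.2% lower and 39.7% in either direction. The median difference of the 9 members was 1.78 on the log2 scale, against -0.04 for all genes.

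Prrx1 showed the largest difference from endothelial-like nuclei, 4.21 (SE 0.15, edgeR adjusted p 1.90e-26). Prrx2 was higher by 2.93 (SE 0.35), Snai1 by 2.30 (SE 0.40) and Snai2 by 1.99 (SE 0.26), with edgeR adjusted p of at most 4.96e-06. Msx1 was higher by 1.78 (SE 0.21), Twist2 by 1.76 (SE 0.28) and Zeb1 by 1.59 (SE 0.19), with edgeR adjusted p of at most 7.98e-07. Zeb2, higher by 0.84 (SE 0.23, edgeR adjusted p 0.00216), and Twist1, higher by 0.80 (SE 0.23, edgeR adjusted p 0.00342), had the smallest differences. The Twist1 call was lost without replicate 1 (0.76, adjusted p 0.0676) and without replicate 2 (0.57, adjusted p 0.128), and the Zeb2 call without the pool block (0.83, adjusted p 0.0591), all in edgeR.

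The second comparison set valve interstitial-like against fibroblast-like nuclei, both of them connective. Here 3 of the 9 members were called higher and 2 lower, where 8.25% of all genes were called higher, 8.38% lower and 16.6% in either direction. The difference of Msx1 was 2.61 (SE 0.27, edgeR adjusted p 1.12e-10). That of Twist1 was 1.23 (SE 0.29, edgeR adjusted p 0.00108). Twist2 was lower, at -2.71 (SE 0.19, edgeR adjusted p 1.83e-15), and so was Zeb2, at -1.48 (SE 0.23, edgeR adjusted p 1.49e-06). These 4 kept their direction and their call under each of the 11 alternatives run. Prrx1 was called higher by 0.34 (SE 0.12, edgeR adjusted p 0.0455), and that call was lost under 10 of the 11 alternatives, with adjusted p from 0.0140 to 0.499. The differences of Snai1 (-0.26, SE 0.37), Snai2 (0.25, SE 0.26), Zeb1 (0.10, SE 0.19) and Prrx2 (0.46, SE 0.32) did not pass the test. With each pool left out in turn, Snai1 ranged from -0.77 to -0.06, Snai2 from 0.16 to 0.34, Zeb1 from -0.00302 to 0.23 and Prrx2 from 0.16 to 0.68. The paralogue pairs Twist and Zeb were thus each split, with 1 member of each lower in valve interstitial-like nuclei and the other higher (Twist1) or without a call (Zeb1).

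Against smooth muscle-like nuclei, the contractile class of the root wall, 5 of the 9 members were called higher and 1 lower, where 14.8% of all genes were called higher, 14.7% lower and 29.4% in either direction. The difference was 4.38 for Msx1 (SE 0.31), 1.70 for Prrx1 (SE 0.13), 1.69 for Twist1 (SE 0.27) and 1.23 for Zeb1 (SE 0.19), each with an edgeR adjusted p of at most 1.97e-06. Snai1, at 1.499 (SE 0.41, edgeR adjusted p 0.00388), was the least sure of these. With replicate 1 left out (without replicate 1), its difference was 0.64 (edgeR adjusted p 0.571), so its call rests on that pool, which held 37 of the 59 Snai1 UMIs of the valve interstitial-like class. Twist2 was called lower at -0.61 (SE 0.23, edgeR adjusted p 0.0401), and 7 of 11 alternatives lost that call, with adjusted p from 0.000141 to 0.422. Snai2 at 0.56 (adjusted p 0.0959), Prrx2 at 0.73 (adjusted p 0.0711) and Zeb2 at -0.03 (adjusted p 0.947) did not pass the edgeR threshold. With each pool left out in turn, Snai2 ranged from 0.25 to 0.81, Prrx2 from 0.49 to 1.06 and Zeb2 from -0.08 to 0.04. Snai2 and Prrx2 each gained the call under 3 of 11 alternatives, with adjusted p from 0.0169 to 0.749 for Snai2 and from 0.0381 to 0.438 for Prrx2. These comparisons share the same 3 valve interstitial-like libraries and are not independent of each other.

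**Figure D2:**
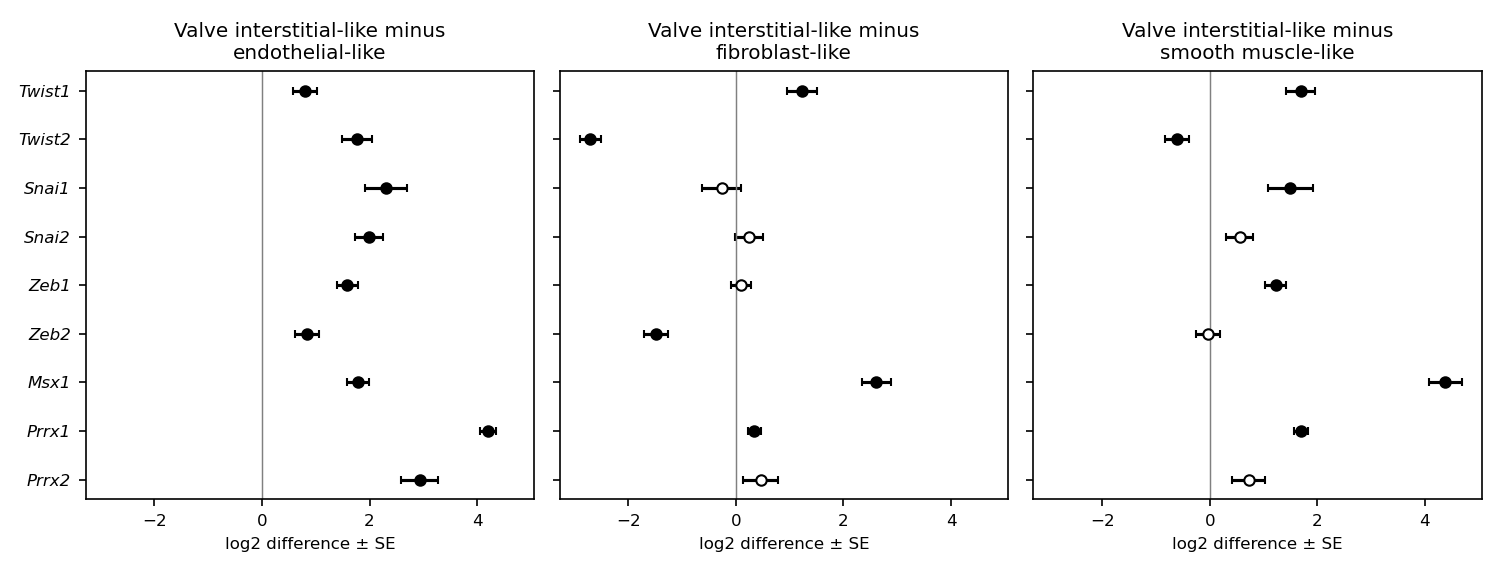
Difference of each tested factor between valve interstitial-like nuclei and 3 other classes, on the log2 scale, with SE bars from the edgeR fit. Filled points have an adjusted p under 0.05, open points do not, and values right of the line are higher in valve interstitial-like nuclei. All 9 points are filled and positive against endothelial-like nuclei, while Twist2 (-2.71) and Zeb2 (-1.48) lie left of the line against fibroblast-like nuclei.

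Against the mean of the 4 other large classes, which had 100 or more nuclei in each pool (endothelial-, fibroblast-, smooth muscle- and cardiomyocyte-like), 7 of the 9 members were called higher. Of 14784 genes, 19.3% were called higher there, 16.1% lower and 35.4% in either direction. The largest was Msx1 at 3.28 (SE 0.16, edgeR adjusted p 1.02e-13), followed by Prrx1 at 2.06 and Twist1 at 1.80. Zeb2, at 0.15 (adjusted p 0.0788), and Twist2, at 0.03 (adjusted p 0.913), did not pass the edgeR threshold. The comparison with the mean of all 9 other classes called 8 of the 9 higher, where 20.7% of all genes were called higher, 7.99% lower and 28.7% in either direction. Of its calls 72.1% were higher, against 59.3% in the DESeq2 Wald test (2740 higher, 1880 lower) and 84.0% without replicate 1 (2620 higher, 498 lower). In it Msx1 was at 3.61 (SE 0.21) and Twist2, not called, at 0.16 (SE 0.29). With each pool left out in turn, Msx1 ranged there from 3.45 to 4.51. On simulated counts this wider mean, which includes sparse classes, called 22.3% of genes that had not been changed, against 0.129% for the 4 larger classes, so its calls are given as a description. The median of all genes was itself 0.23 in that comparison.

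The share of nuclei with at least 1 UMI was counted after each nucleus was thinned to 1000 UMIs, with cardiomyocyte-like nuclei set beside each share as a class outside the connective lineages. In the valve interstitial-like class, pools 1, 2 and 3 had a Msx1 UMI in 4.89% (Wilson 95% interval 3.49 to 6.83), 3.23% (1.85 to 5.55) and 5.38% (3.64 to 7.88) of nuclei. The cardiomyocyte-like shares were 0.912% (0.522 to 1.59), 0.244% (0.0670 to 0.886) and 0.369% (0.126 to 1.08), and the intervals were apart in every pool. The median depths before thinning were 3594.5 UMIs in valve interstitial-like and 4937 UMIs in cardiomyocyte-like nuclei. Without thinning the Msx1 share was 16.0% ± 3.72 in valve interstitial-like and 1.27% ± 0.68 in cardiomyocyte-like nuclei. In fibroblast-like nuclei the thinned share of Msx1 was 0.548% ± 0.629, beside 0.509% ± 0.355 in cardiomyocyte-like nuclei. The CPM were higher in the fibroblast-like class in each pool (14.2, 10.9 and 5.22 against 3.93, 2.38 and 1.25 CPM), so no order is read from the thinned shares.

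Prrx1 was detected in 26.1% ± 2.27 of thinned valve interstitial-like nuclei and in 22.8% ± 0.78 of fibroblast-like nuclei. Its share in endothelial-like nuclei, 1.26% ± 0.163, was under the 6.86% ± 0.275 of cardiomyocyte-like nuclei, and the CPM had the same order. Twist2 was detected in 14.0% (11.2 to 17.3), 13.6% (9.84 to 18.5) and 11.4% (8.25 to 15.5) of fibroblast-like nuclei, against 0.691% ± 0.490 of cardiomyocyte-like nuclei. A single cardiomyocyte-like cluster, led by Mb and Myl3 (611 nuclei, median 1836 UMIs), held 64 of the 93 Twist2 UMIs and 28 of the 44 Msx1 UMIs of that class. A UMI of Twist1 was found in 2.62% ± 1.02 and of Snai2 in 2.24% ± 0.944 of valve interstitial-like nuclei, against 0.289% ± 0.256 and 0.357% ± 0.106 in the cardiomyocyte-like class. Snai1, at 0.745% ± 0.422 against 0.183% ± 0.161, could not be separated from the cardiomyocyte-like share within pools at this depth.

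Zeb1 was detected in 73.3% ± 5.53 of thinned valve interstitial-like and 75.9% ± 3.72 of fibroblast-like nuclei, and in 33.1% ± 1.93 of cardiomyocyte-like nuclei. At least 1 member of the 10 had a UMI in 90.2% ± 2.60 of valve interstitial-like, 95.6% ± 0.501 of fibroblast-like and 61.5% ± 5.63 of endothelial-like nuclei, beside 48.6% ± 3.64 in the cardiomyocyte-like class. UMIs of 2 or more members were found in 47.2% ± 1.67 of valve interstitial-like, 67.3% ± 4.12 of fibroblast-like and 13.2% ± 1.62 of endothelial-like nuclei, beside 9.90% ± 1.71 in the cardiomyocyte-like class. The intervals cover counting error only.

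Within classes the members were not even, and the values by cluster are given as a description. Valve interstitial-like nuclei formed 2 clusters, led by Rmst and Pcdh15 (926 nuclei) and by Abi3bp and Ctnna2 (546 nuclei), all 4 of them among the markers used for the name. Zeb1 was at 2526, 2285 and 2977 CPM in the Rmst cluster and at 1037, 792 and 1153 CPM in the Abi3bp cluster, with no overlap between pools. Prrx1 overlapped between both, at 331 CPM ± 33.5 and 329 CPM ± 49.4, and so was Twist2, at 22.3 CPM ± 8.17 and 22.1 CPM ± 6.09. Msx1 was at 81.6, 63.0 and 66.6 CPM in the Rmst cluster and at 33.9, 63.4 and 51.9 CPM in the Abi3bp cluster, which overlapped. All 13 Msx2 UMIs of the class were in the Rmst cluster, at 3.16, 3.65 and 3.08 CPM, and the Abi3bp cluster held none. A count of 0 allows up to 3 UMIs, which would be 3.39, 5.59 and 8.65 CPM in the Abi3bp cluster. No pool by itself therefore sets the clusters apart. Of the 23 cardiomyocyte-like Msx2 UMIs, 7 were in the cluster led by Ryr3 and Cpne5 (4.12 CPM ± 2.18) and 8 in that led by Erc2 and Lrrc4c. Prrx2 was also high in the Ryr3 cluster of 227 nuclei, at 17.2, 18.5 and 15.4 CPM from 25 UMIs, above every pool of the whole valve interstitial-like class. It overlapped the single valve interstitial-like clusters, which reached 16.4 CPM (Rmst, pool 3) and 18.6 CPM (Abi3bp, pool 2).

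Of the 7 endothelial-like clusters, Msx1 had its highest mean in that led by Dlgap2 and Cntnap5a, with 247 nuclei. Its Msx1 level was 99.2, 74.0 and 56.2 CPM, a range that spans the valve interstitial-like values, and the cluster held 110 of the 279 Msx1 UMIs of the endothelial-like class. The means of the other 6 endothelial-like clusters were between 8.67 and 17.4 CPM. Prrx1 in the Dlgap2 cluster was at 11.4 CPM ± 4.89, and Twist1 at 12.3 CPM ± 4.77. Twist1 was instead highest in the cluster led by Rtl4 and Cytl1, at 25.0, 23.1 and 37.6 CPM, which overlapped with the valve interstitial-like class. It was lowest in the clusters led by Mannr and Ptchd1 (1.86 CPM ± 1.70) and by Pcdh17 and Aplnr (2.53 CPM ± 0.94). The Pcdh17 cluster had the highest mean Snai2 of the 7, 14.5 CPM ± 2.00, and the highest mean Zeb1, 1103 CPM ± 131, whose pools overlapped those of the Dlgap2 cluster (970 CPM ± 139).

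**Figure D3:**
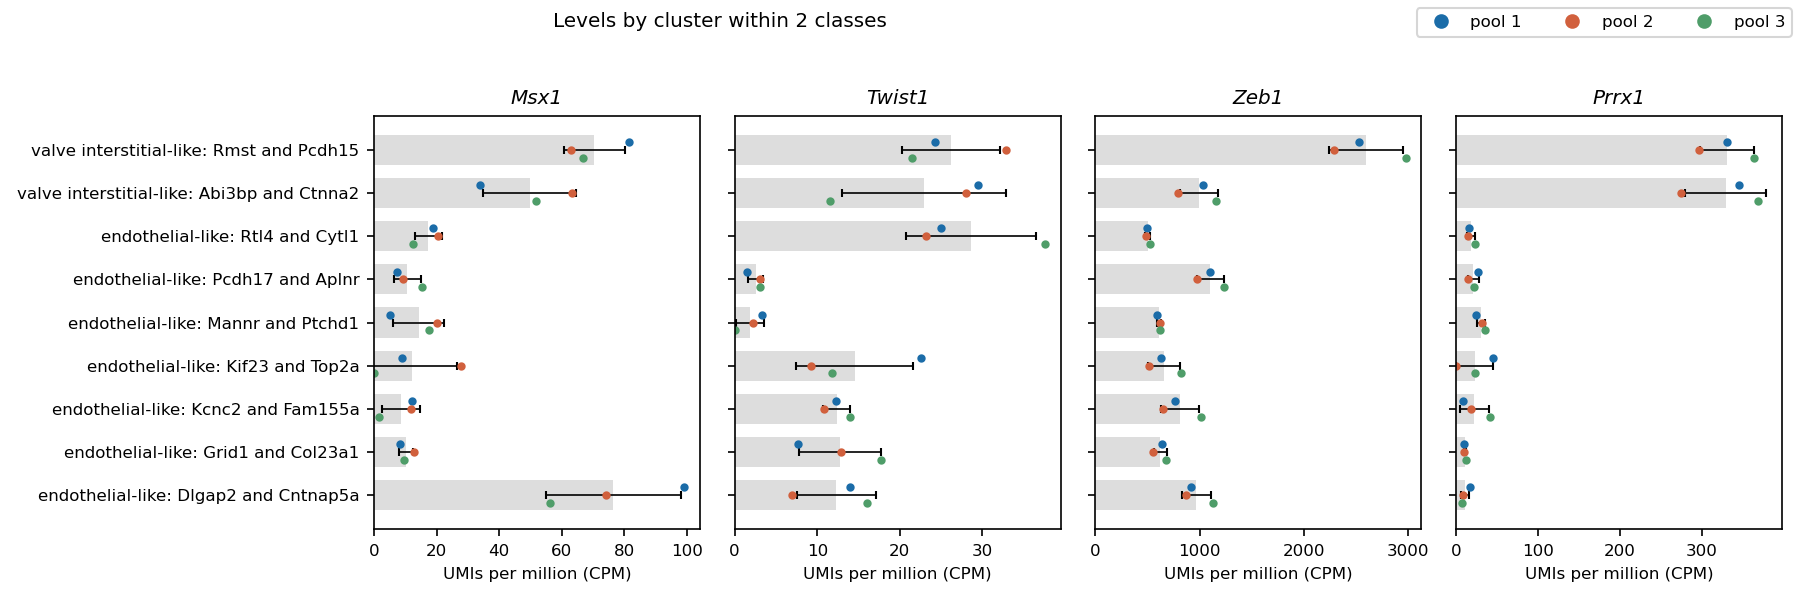
Levels of Msx1, Twist1, Zeb1 and Prrx1 in the 2 valve interstitial-like and 7 endothelial-like clusters, each named by its 2 leading genes. Bars give the mean of 3 pools in CPM, error bars the SD and points the pools. The Dlgap2 and Cntnap5a cluster has a mean Msx1 of 76.5 CPM beside 70.4 and 49.7 CPM in the valve interstitial-like clusters, and Prrx1 is low in all 7 endothelial-like clusters.

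Among smooth muscle-like nuclei, Twist2 was higher in the cluster led by Prdm6 and Cdh18 (36.3, 52.4 and 33.9 CPM) than in that led by Mylk4 and Ptprz1 (22.5, 18.6 and 23.7 CPM). Zeb2 had the same order, at 672 CPM ± 59.9 and 403 CPM ± 21.2. An unnamed cluster of 742 nuclei, led by Clca3a2 and Pi15, was high in Twist2 (91.1 CPM ± 10.8) and Zeb2 (1273 CPM ± 107) and low in Msx1 (2.40 CPM ± 2.13). It had under 3 markers of any class and entered no test.

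The balance inside each gene pair was followed as the share of the pair's UMIs that belonged to the first gene, and only its change between classes is read. Twist1 made up 67.1%, 72.7% and 73.1% of Twist UMIs in endothelial-like nuclei, and 59.5%, 63.0% and 37.9% in valve interstitial-like nuclei. It made up 19.7% ± 0.888 in smooth muscle-like nuclei, and 7.43%, 7.61% and 6.30% in the pools of fibroblast-like nuclei. No pool of one of these 4 classes overlapped another class. Zeb1 made up 78.5% ± 2.34 of Zeb UMIs in valve interstitial-like nuclei, 68.7% ± 0.663 in endothelial-like, 55.1% ± 1.08 in fibroblast-like and 16.3% ± 6.01 in macrophage-like nuclei. Its share was higher in mesothelial-like nuclei, at 88.9% ± 6.64. In lymphatic endothelial-like nuclei it was 84.2% ± 9.09, with pools that overlapped the valve interstitial-like range. The Prrx1 share of Prrx UMIs stayed between 91.2% and 96.3% over the means of endothelial-, smooth muscle-, cardiomyocyte-, valve interstitial- and fibroblast-like nuclei. Snai1 made up 39.6% ± 0.435 of Snail UMIs in fibroblast-like nuclei and 29.5% ± 7.48 in valve interstitial-like nuclei.

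**Figure D4:**
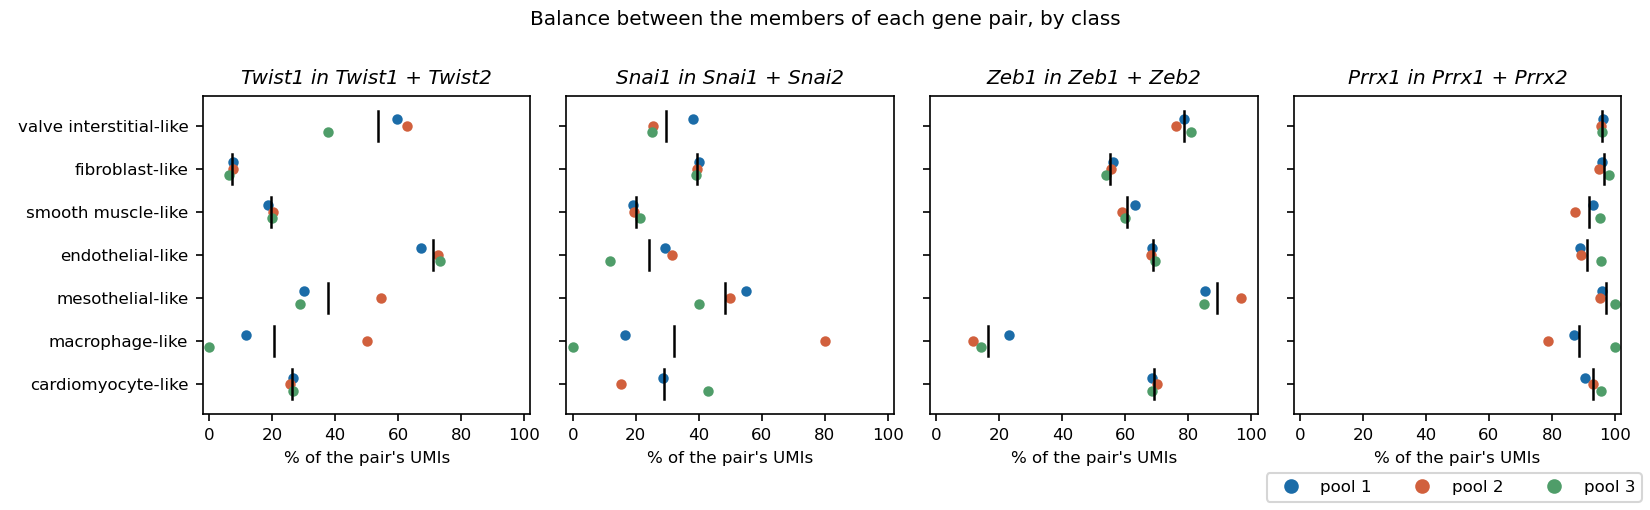
Share of each pair's UMIs that belongs to the first gene, in percent, in 7 classes. Points are the 3 pools and the black line is their mean. The Twist1 share falls from 71.0% in endothelial-like to 7.11% in fibroblast-like nuclei, and the Zeb1 share is lowest in macrophage-like nuclei (16.3%).

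The surroundings of these factors were read from a list of 99 partner, signal and target genes, of which 86 were tested. Against endothelial-like nuclei, 32 were called higher and 32 lower by edgeR, with a median of -0.04 on the log2 scale, against -0.04 for all genes. The shares of all genes called were 18.5% higher and 21.2% lower, which also stand beside each group count of this comparison. Among the 28 tested cushion and valve transcription factors, 10 were higher and 10 lower. Runx1 was higher by 4.82, Sox9, a factor of cartilage and valve matrix genes, by 4.45, Meox1 by 3.61 and Tbx20, a T-box factor of the heart, by 3.16. Gata5 and Klf4 were both lower, at -3.05. Of the 10 helix-loop-helix partners and inhibitors tested, 3 were higher and 5 lower, with Tcf15 at -4.90 (SE 0.61). The Tcf15 fit against the mean of the other classes had an SE of 1917570, so the size is given as a description. Of the 21 signals of cushion transformation, 8 were higher and 11 lower, with a median of -0.60 and Bmp6 lower at -1.58. Of the E proteins, the dimer partners of Twist factors, Tcf12 was higher by 0.79, while Tcf4 at -0.38 (adjusted p 0.101) and Tcf3 at -0.05 (adjusted p 0.783) did not pass the edgeR threshold.

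Of 11 epithelial or junction genes listed as repressed by such factors, Ocln, Tjp1, Dsp and Cldn3 were high enough to be tested and 7 were not. Ocln, which encodes a tight junction protein, had 3, 1 and 0 UMIs in valve interstitial-like nuclei of pools 1, 2 and 3 and was at 26.9 CPM ± 6.99 in endothelial-like nuclei. Its fitted difference was -5.06 (SE 0.49, edgeR adjusted p 1.86e-11), and at so few UMIs that size depends on the prior count. Tjp1 was also lower, at -1.01, while Dsp (1.32) and Cldn3 (2.38) were higher. Of 15 mesenchymal genes, 9 were higher and 3 lower, with a median of 0.94. Cdh2, which encodes N-cadherin, was higher by 2.76 and Postn by 2.67, while Fn1, which encodes fibronectin, was lower at -2.07. Of 8 corepressor genes used by SNAIL and ZEB proteins, 7 were not called and Ajuba was lower at -0.78.

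Against fibroblast-like nuclei, 28 of the 86 genes were higher and 14 lower, with a median of 0.14 against 0.01 for all genes, of which 8.25% were called higher and 8.38% lower. Tbx3, a T-box repressor, was higher by 3.46, Runx1 by 3.36, Bmp6 by 2.57 and Hbegf by 2.33. Tcf21, a helix-loop-helix factor of epicardial fibroblasts, was lower at -3.35, Nr2f2 at -2.13, Meox2 at -1.93 and Klf4 at -1.78. Of the mesenchymal genes, 2 were higher and 4 lower here, and none of the 8 corepressors was called. For those 8 the edgeR differences lay between -0.22 and 0.22.

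Against smooth muscle-like nuclei, 40 of the 86 were higher and 17 lower, with a median of 0.33 against -0.02 for all genes, of which 14.8% were called higher and 14.7% lower. Tbx3 was higher by 5.48, Has2, the hyaluronan synthase of cushion matrix, by 4.67, Sox9 by 4.41 and Bmp6 by 4.16. Prdm6, a smooth muscle repressor, was lower at -5.08, Jag1 at -3.76, Osr1 at -3.53 and Hey2 at -2.56. Of the 8 corepressors, 4 were higher and none lower in this comparison. Of the 4 junction genes tested, none was called against smooth muscle-like nuclei, and Dsp was the only one called against fibroblast-like nuclei, higher by 2.14.

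The genes whose level ran most like a member's over the 30 class and pool libraries were taken by Pearson's r of log2(CPM + 5), as a description over 10 classes whose 3 libraries each are not independent. Apcdd1 (r = 0.92), Vash1 (0.87) and Sall3 (0.83) were nearest to Msx1, and Grik4 (0.91) was nearest to Twist1. Smoc2 (0.88) was nearest to Twist2, Frmd6 (0.91) to Zeb1, Pid1 (0.87) to Zeb2, and Tbc1d10a (0.79) to Snai1. Rab36 (0.88) was nearest to Snai2, Pth1r (0.87) to Prrx2 and LOC108167740 (0.83) to Prrx1. Among the members themselves, Snai2 and Prrx2 were closest (0.76), followed by Snai2 and Zeb1 (0.71), while Twist1 and Zeb2 were farthest apart (-0.22).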

How the data were processed

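Each value was read from raw UMI counts per gene and nucleus that the authors deposited, 1 matrix per pool. Per the file headers, the matrices come from Cell Ranger 7.1.0. The submitters' processing notes name Cell Ranger 7.0.1 and 7.1.0 and build GRCm39, and no genome of that build was used here. The matrices were checked to hold whole numbers, with at least 500 UMIs in each nucleus.

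Nuclei with at least 1000 UMIs and at most 5% of UMIs from 13 mitochondrial genes were kept, 14073 in all, with median UMI counts of 4490, 4892 and 3418. Scrublet in scanpy 1.11.5 marked 0, 1 and 2 nuclei with its automatic threshold. That threshold was replaced, after this was seen, by the highest scores at 0.8% per 1000 deposited nuclei, which marked 598, 155 and 138 nuclei. The 2000 most variable genes outside the members, the list of partner genes, mitochondrial and sex-linked genes gave 30 components and a graph of 15 neighbours, divided by leidenalg 0.10.2 at a resolution of 1 into 26 clusters. A cluster was named when at least 3 markers of a class were in at least 10% of its nuclei and at least 2-fold higher than elsewhere (pseudocount 5 CPM), and 3 clusters stayed unnamed, with 1572 nuclei. Cell classes can differ from those of the study because the names were rebuilt.

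Counts were summed per pool and class for the 10 classes that had 20 or more nuclei in each pool, 30 libraries in all. The quasi-likelihood test of edgeR 4.0.16 was run in R 4.3.3, with filterByExpr, TMM factors, pool as a block and Benjamini-Hochberg adjustment over 13742 genes at 0.05. The block takes out what all classes of a pool share. The remaining spread was estimated over all 10 classes of the main fit together, with 18 residual degrees of freedom. The p-values thus do not rest on the compared classes alone. The SE is the log2 difference divided by the root of F. The block is justified because libraries with the same number come from the same pool. Their deviations from the class means correlated at a median of 0.386 (0.0359 to 0.509 over 30 pairs of large classes), against -0.151 for different pools. Subtracting the class means pulls the value for different pools below 0, so it is no independent contrast. On simulated data the comparisons with endothelial-, fibroblast- and smooth muscle-like nuclei recovered 74%, 73% and 74% of genes changed 2-fold and called at most 0.189% of unchanged genes, among 13742 genes simulated. The counts were drawn from the fitted model, so these rates do not cover a misfit of that model. Genes with the lowest simulated counts in valve interstitial-like nuclei were not among those changed. Alternatives were no filter, DESeq2 1.42.0 size factors, the DESeq2 Wald test, no block, doublets kept, 500 UMIs, a resolution of 2, members and list in the clustering, larger classes only and each pool left out.

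All members were named. From the list, the rule named up to 4 called genes that rose most and 4 that fell most, where all pools had the same direction, and any other list gene could be named. The members, markers and lists were chosen with earlier results of these data known. Shares carry Wilson 95% intervals, which cover counting error only.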

Additional observations from a re-analysis of the deposited data

Results flagged for a closer look

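The report uses 13182 nuclei, and 7958 deposited nuclei with 26902329 UMIs were left out, 6159 of them with more than 5% mitochondrial UMIs. All 10 factors were also detected in those nuclei, above the 3 counts that a count of 0 allows. They held 18123 UMIs of Zeb1, 10922 of Zeb2, 2405 of Prrx1, 660 of Twist2, 408 of Msx1 and 393 of Twist1. They also held 348 UMIs of Snai2, 147 of Prrx2, 114 of Snai1 and 27 of Msx2. No class was assigned to these nuclei. Their Msx1 level was 13.9, 18.2 and 14.0 CPM in pools 1, 2 and 3, and their Prrx1 level was 90.0 CPM ± 6.41 (SD, n = 3 pools). The 27 Msx2 UMIs came from pools 1 (12) and 2 (15), with none in pool 3.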

How the results depend on the processing

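The number of members called stayed within 1.5 times the main number in all 45 alternative fits of the 4 comparisons. Without the pool block (no replicate block), 8 of 9 members were called against endothelial-like, 4 against fibroblast-like, 5 against smooth muscle-like nuclei and 7 against the mean of the other classes. Of all genes, that fit called 2064 higher and 2151 lower, 843 and 845, 1599 and 1578, and 2394 and 765 in these 4 comparisons. Of 405 alternative values of single members, 366 kept direction and call, 25 lost the call, 6 gained it and 8 changed sign. None of the 8 was called in either fit. Against smooth muscle-like nuclei, Zeb2 was at 0.0103 with DESeq2 size factors, 0.148 at a resolution of 2, 0.0808 with the members and the list in the clustering, 0.0400 without replicate 3 and 0.0152 in the DESeq2 Wald test. Against fibroblast-like nuclei, Snai1 was at 0.178 at a resolution of 2 and Zeb1 at -0.00302 without replicate 3, and Twist2 against the mean of the other classes was at -0.00389 without replicate 3. With 1 pool left out in turn, these values ranged from -0.0801 to 0.0400 for Zeb2, from -0.00302 to 0.23 for Zeb1 and from -0.00389 to 1.06 for Twist2. The cause was not tested. Without replicate 1, 1483 genes were called against fibroblast-like nuclei, and 2285 with all pools. DESeq2 size factors moved the median of all genes against endothelial-like nuclei from -0.04 to 0.06, and the calls from 2547 higher and 2911 lower to 3202 higher and 2453 lower. The Wald test gave 2943 and 2195. Without replicate 1 the median against the mean of the other classes was 0.56. With no filter on low counts, all 10 members were called against endothelial-like nuclei, among 2725 genes called higher and 3369 lower. Without thinning, 49 of 50 shares were higher. The fewest UMIs were those of Msx2 (54), Snai1 (261) and Prrx2 (387).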
